A study of Rattus norvegicus with 4 samples.

Results

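Has1-high fascia fibroblasts are stromal cells of the rat abdominal midline fascia that carry several transcripts of Has1, a plasma membrane enzyme that makes hyaluronan. They were chosen cell by cell. A cell had to pass the quality limits and a stromal gate (at least 30 unique molecular identifiers, UMIs, per 10000 from Col1a1, Col1a2, Col3a1, Dcn, Mfap5 and Serpinf1, with no UMI of the leukocyte gene Ptprc or the endothelial gene Pecam1). It then had to hold at least 3 Has1 UMIs and no Mrgprg UMI, and not both Myoc and Igfbp3. Of 38282 deposited cells, 34904 passed the quality limits and 16825 the gate, and 1583 of these were Has1-high. They were compared with the 10482 gate cells of the same libraries that had no Has1 UMI, called Has1-zero cells here. Unlike the Has1-high cells, 2577 of these carried a Mrgprg UMI and 871 both Myoc and Igfbp3. With such cells left out, 97 of 103 named and called genes kept their call. A further 3846 gate cells held 1 or 2 Has1 UMIs, and 781 and 146 cells with 3 or more were left out for Mrgprg and for Myoc with Igfbp3, some of them for both.

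Dysentery was induced in all rats with Salmonella, and some rats were then given acupuncture. The tissue, labelled subcutaneous fascia, was digested with collagenase and elastase and cleared of dead cells, and 3' droplet libraries were made. There were 2 libraries from rats with dysentery and acupuncture and 2 from rats with dysentery alone, and none of the libraries used here is from an uninfected rat. The titles, descriptions and design text give these groups, but the treatment field of all 4 libraries names the opposite one, and every difference between treatments given here would have the other sign under that field. Strain, age and whether each library is a separate animal are not stated in the labels, and p-values therefore reflect how far these libraries scatter, which may be technical. Libraries held 53066666 to 93897006 UMIs in 7965 to 11327 cells, and the summed Has1-high cells held 6659615 and 11836856 UMIs with acupuncture but only 959522 and 1392605 with dysentery alone.

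Hyaluronan is a long sugar polymer that lets layers of fascia glide over each other. It is made at the cell surface by the synthases Has1, Has2 and Has3 from UDP-glucuronic acid and UDP-N-acetylglucosamine, is bound by proteins such as versican (Vcan), Tnfaip6 and Ptx3, and is sensed through Cd44. Has1 is known to be induced in fibroblasts by inflammatory cytokines and prostaglandins, and fascia fibroblasts that carry Pi16 and Dpp4 are regarded as a progenitor-like population.

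The 250 bases before the annotated start of Has1, Il6 and Cxcl1 are given because Has1 defines the cells and the other genes were among those most raised in them. They are RefSeq sequences on build GRCr8, each on the minus strand, written 5' to 3', with capitals for matches to the CRE letters TGACGTCA or to the kappaB motif.

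Has1, chr1:67378445-67378694: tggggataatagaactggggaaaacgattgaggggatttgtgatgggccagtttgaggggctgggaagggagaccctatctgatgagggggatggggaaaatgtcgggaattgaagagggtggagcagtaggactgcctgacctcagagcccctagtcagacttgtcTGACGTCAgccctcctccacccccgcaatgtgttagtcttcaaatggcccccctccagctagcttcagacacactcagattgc

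Il6, chr4:5894576-5894825: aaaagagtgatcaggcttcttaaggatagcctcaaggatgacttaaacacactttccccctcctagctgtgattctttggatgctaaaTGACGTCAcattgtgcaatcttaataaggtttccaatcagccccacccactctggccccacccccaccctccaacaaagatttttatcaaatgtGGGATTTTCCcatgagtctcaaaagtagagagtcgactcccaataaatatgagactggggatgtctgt

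Cxcl1, chr14:17479322-17479571: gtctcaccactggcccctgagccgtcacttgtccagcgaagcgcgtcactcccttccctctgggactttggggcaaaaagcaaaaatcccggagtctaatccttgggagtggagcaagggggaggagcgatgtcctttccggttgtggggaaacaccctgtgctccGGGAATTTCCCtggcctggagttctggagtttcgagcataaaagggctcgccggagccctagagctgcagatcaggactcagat

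The Has1 window held 1 CRE match, from 83 to 76 bases before the start (-83 to -76). The Il6 window held a CRE match at -162 to -155 and a kappaB match, GGGATTTTCC, at -68 to -59. The Cxcl1 window held overlapping kappaB matches from -84 to -74. Searched on both strands of 33469 promoter windows of 250 bases, CRE letters were present in 1.59%, the AP-1 letters TGANTCA in 6.34% and the kappaB motif in 6.33%. Of the 12 genes with the largest rises in Has1-high cells, 7 had a promoter entry, of which 2 held CRE, 0 AP-1 and 4 kappaB. Nfil3, which rose more than Cxcl1, and Ptgs2 had entries without any match and are not printed. The printed windows therefore do not stand for all 7. A match describes letters in a window and is not evidence of a bound site.

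Has1 itself was used to choose the cells, and its levels are a description. Median Has1 content was 8 and 7 UMIs per Has1-high cell in the acupuncture libraries and 3 and 3 in the dysentery libraries, and the highest cells held 126, 60, 10 and 11. Cells with 10 or more Has1 UMIs made up 42.0% and 36.7% of the Has1-high cells with acupuncture, against 1 cell (1.10%) and 2 cells (1.198%) with dysentery alone. Most dysentery cells lay close to the threshold, with 73.6% and 76.0% at 3 or 4 UMIs against 26.03% and 29.8% with acupuncture. Just inside it, at exactly 3 UMIs, there were 107, 126, 52 and 93 cells in acupuncture 1 and 2 and dysentery 1 and 2, and just outside it, at 2 UMIs, 140, 176, 133 and 205. As a check on free RNA, 0 of 392, 462, 601 and 390 T cells held 3 or more Has1 UMIs, which allows shares of up to 0.765%, 0.649%, 0.499% and 0.769%. At least 1 Has1 UMI was found in 1.53%, 0.216%, 0.666% and 0.513% of T cells, against 44.4%, 42.9%, 25.3% and 35.7% of gate cells. The T cells had to lie below the UMI limit of the stromal gate, so T cells with more stromal RNA were left out beforehand. Both T cell shares therefore describe only T cells with little stromal RNA and are not an independent measure of free Has1 RNA.

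The cells carried the fibroblast identity that their name states. Summed over 8 fibroblast markers, levels were 5046, 5784, 4428 and 4762 CPM (each library scaled to an equal total) in Has1-high cells and 5114, 5655, 4388 and 4653 CPM in Has1-zero cells, and 0 of these markers was absent from any library. Mesothelial markers, which a lining cell would carry, summed to 6.89 to 14.3 CPM against 9.59 to 25.5 CPM. Has1-high cells were deeper than their neighbours. Their median content was 11325.5, 15695, 9833 and 8190 UMIs, against 5093, 5338, 6162.5 and 5967.5 UMIs in Has1-zero cells. As a check on depth, gate cells of at least 3000 UMIs were thinned to that number, and those with fewer were dropped. This left 3200, 2986, 2103 and 5389 of the 4001, 3691, 2695 and 6438 gate cells in acupuncture 1 and 2 and dysentery 1 and 2. Under this thinning 396 genes were called, 311 of them among the 895 called at full depth. The classes of that thinned fit were drawn anew from the thinned counts, and 14 Has1-high cells remained in dysentery 1. The fit therefore does not separate depth from class membership. Thinned shares of cells with a UMI of a gene, given below, keep the classes drawn from raw counts. No barcode was Has1-high in both libraries of any pair, and 1 to 4 Has1-high cells per pair carried a barcode that also occurred in the other library.

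The second hyaluronan synthase stood higher in the same cells, and so did several proteins that bind hyaluronan and enzymes that supply its sugars. Has2, which was not used to choose the cells, stood at 178, 184, 150 and 161 CPM in Has1-high cells of acupuncture 1 and 2 and dysentery 1 and 2, against 68.6, 57.0, 65.3 and 99.4 CPM in Has1-zero cells. Every Has1-high value lay above every Has1-zero value (as was so for 2.47% of all genes tested, with 3.14% in the opposite order), and the log2 difference was 1.26 ± 0.14 (SE, 4 libraries, edgeR adjusted p = 0.000605). Shares of cells with a Has2 UMI were taken from cells of at least 3000 UMIs, thinned to that number. They were 29.4% to 32.4% in Has1-high cells and 11.7% to 21.2% in Has1-zero cells. Has3, the remaining synthase, had 0 UMIs in Has1-high cells, which allows up to 0.144 CPM over the group of 4 libraries.

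**Figure D1:**
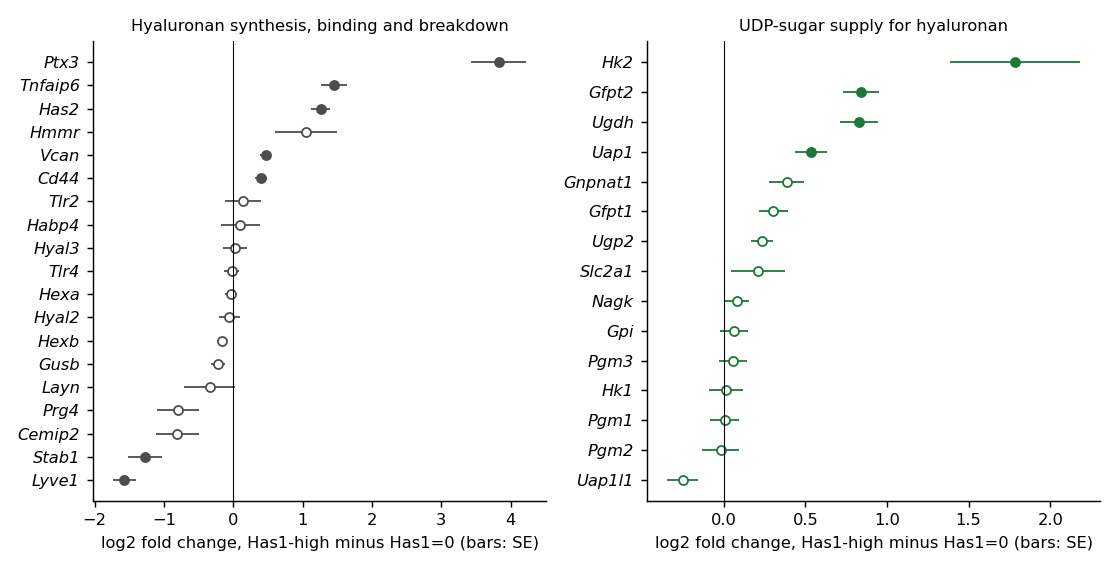
Log2 fold change of Has1-high minus Has1-zero cells (x axis) for 19 hyaluronan genes (left) and 15 UDP-sugar genes (right), with bars for the standard error of the fit over 4 libraries and filled points for adjusted p under 0.05. Filled points to the right of 0 are Ptx3, Tnfaip6, Has2, Vcan and Cd44 on the left and Hk2, Gfpt2, Ugdh and Uap1 on the right, and Stab1 and Lyve1 lie filled to the left of 0.

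Tnfaip6, which transfers heavy chains onto hyaluronan, measured 387, 381, 102 and 84.8 CPM in Has1-high cells and 87.8, 125, 61.4 and 40.2 CPM in Has1-zero cells. It was higher in Has1-high cells of each library, as were 11.1% of all genes tested, with 14.7% lower in each (log2 1.46 ± 0.19, edgeR adjusted p = 0.00149). Versican, the large proteoglycan that binds hyaluronan, measured 278, 226, 361 and 273 CPM against 193, 152, 263 and 222 CPM, a small rise in each library (log2 0.46 ± 0.07, adjusted p = 0.0047). Ptx3, which crosslinks hyaluronan together with Tnfaip6, stood apart by treatment. It reached 182 and 420 CPM in the acupuncture Has1-high cells and 0.997 and 1.45 CPM in the dysentery ones, against 7.91, 26.9, 1.31 and 1.57 CPM in Has1-zero cells. Its log2 rise of 3.82 ± 0.39 (adjusted p = 0.000472) was not seen in the dysentery libraries alone (-0.21), and DESeq2 did not call it (log2 2.27).

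Cd44, the hyaluronan receptor, rose slightly (56.4, 62.7, 60.8 and 33.3 CPM against 43.5, 49.5, 38.1 and 27.4 CPM, log2 0.40 ± 0.08, adjusted p = 0.0181). Its call was lost without acupuncture 1 (adjusted p = 0.103) and without acupuncture 2 (0.116). Among 19 tested hyaluronan genes 5 were higher and 2 lower, with a median log2 difference of -0.02. The lower genes were Lyve1 (-1.57) and Stab1 (-1.27), receptors that take up hyaluronan and that macrophages also carry, and Stab1 lost its call without acupuncture 1 (adjusted p = 0.130) or acupuncture 2 (0.310). Over all 11804 genes tested, 7.58% were called (3.48% higher, 4.1% lower) and the median difference was 0.00.

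Of 15 genes that supply UDP-sugars 4 were higher and 0 lower, with a median of 0.21 on the log2 scale. Ugdh, which makes UDP-glucuronic acid, measured 344, 299, 225 and 198 CPM in Has1-high cells and 151, 150, 141 and 150 CPM in Has1-zero cells, with no overlap, as for the 2.47% given above (log2 0.83 ± 0.12, adjusted p = 0.00274). Gfpt2, which feeds the hexosamine pathway, measured 676, 524, 922 and 983 CPM against 310, 306, 443 and 740 CPM and was higher in each library (log2 0.84 ± 0.11, adjusted p = 0.00149). Uap1, the last step to UDP-N-acetylglucosamine, rose by 0.53 (adjusted p = 0.0101). Hexokinase Hk2 rose from low levels (log2 1.78, adjusted p = 0.0241), and lost its call without acupuncture 1 (log2 1.25, adjusted p = 0.354).

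The genes most raised in Has1-high cells were cytokines, chemokines and early response genes. The acute phase cytokine Il6 measured 241, 316, 0.997 and 4.35 CPM in Has1-high cells and 9.84, 21.2, 0.365 and 0.431 CPM in Has1-zero cells. Its Has1-high value was the higher one within each library, but the dysentery values rest on 1 and 6 UMIs (log2 4.15 ± 0.20, adjusted p = 5.4e-06). Ccl2, which attracts monocytes, measured 2552, 2858, 371 and 1003 CPM against 312, 378, 101 and 172 CPM, a rise in each library (log2 2.61 ± 0.16, adjusted p = 1.91e-05). Cxcl1, which attracts neutrophils, measured 2453, 4067, 96.7 and 204 CPM against 144, 618, 20.9 and 67.8 CPM (log2 2.70 ± 0.33, adjusted p = 0.00106). In dysentery 1, a single cell held 59 of its 97 Cxcl1 UMIs (60.8%).

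Atf3, a stress-induced transcription factor, measured 1780, 1677, 87.7 and 133 CPM against 126, 388, 41.9 and 28.7 CPM (log2 2.37 ± 0.34, adjusted p = 0.00276). The transcription factor Nfil3 (log2 2.78), Csrnp1 (2.47), the mitochondrial carrier Slc25a25 (2.01) and the ligand Bmp2 (1.98) were also among the 12 largest rises, as were Nfkbiz, a regulator of NF-kB (2.59), and the nuclear receptors Nr4a3 (2.33) and Nr4a1 (2.06). Without acupuncture 2 the adjusted p of Nfkbiz was 0.0668, that of Nr4a3 0.0664 and that of Nr4a1 0.0949.

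Ptgs2, the inducible cyclooxygenase named in the study's title, measured 604, 1321, 60.8 and 92.1 CPM in Has1-high cells and 28.4, 137, 32.3 and 75.4 CPM in Has1-zero cells. The gap was wide with acupuncture and narrow without it, and the pooled rise only just passed (log2 2.39 ± 0.60, adjusted p = 0.0416). It missed the threshold without acupuncture 1 (log2 1.66, adjusted p = 0.0947), without acupuncture 2 (1.96, 0.260) and in the 2 dysentery libraries alone (0.51, 0.357). UMIs of Cd34, Pdgfra and Ptgs2 together, the combination by which Ptgs2-positive telocytes could be sought, were found in 573 of 1583 Has1-high cells. By library these were 167 of 584, 374 of 741, 11 of 91 and 21 of 167 cells. The counts come from unthinned cells of unlike depth, and Has1-zero cells were not counted in this way.

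By list, 23 of 25 tested immediate early genes were higher and 0 lower (median log2 1.36). In the separate libraries 25, 25, 21 and 24 of the 25 were higher in Has1-high cells, against 51.4%, 50.0%, 46.8% and 44.9% of all genes. Egr1, for instance, measured 3490, 3140, 286 and 385 CPM against 449, 1059, 205 and 197 CPM (log2 1.51, adjusted p = 0.0181). Of 23 NF-kB response genes 13 were higher and 1, Cxcl2, lower (median 0.48), and of 17 heat shock genes 10 were higher and 0 lower (median 0.61). In acupuncture 1 and 2 and dysentery 1 and 2, the heat shock median was 1.17, 0.74, 0.13 and 0.18. The NF-kB median was 0.52, 0.48, 0.18 and 0.42 in the same order. Cytokines and chemokines split, with 6 higher (Il6, Cxcl3, Cxcl1, Ccl2, Cxcl10 and Ccl7) and 5 lower (Cxcl14, Cxcl2, Ccl11, Cxcl13 and Cxcl12) of 21.

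**Figure D2:**
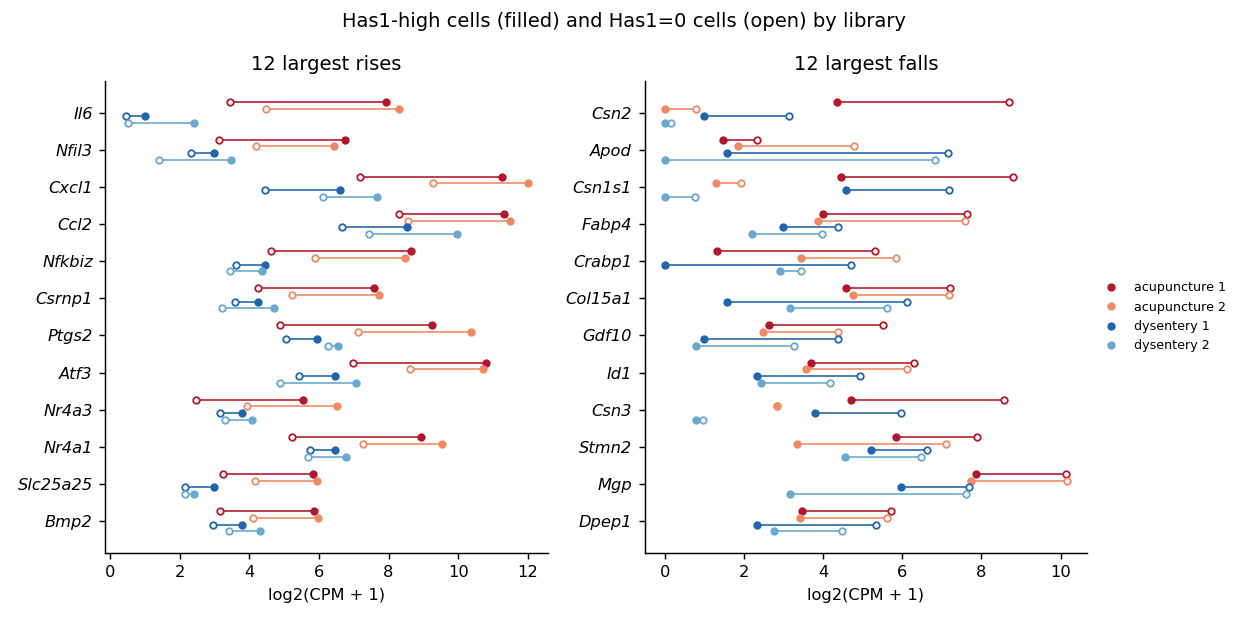
Level on the log2(CPM + 1) scale (x axis) of the 12 genes with the largest rises (left) and falls (right), with filled points for Has1-high and open points for Has1-zero cells, joined within each library and coloured by library. The joining lines of the rises are longer in the acupuncture libraries for genes such as Ptgs2 and Nfkbiz, and those of Fabp4, Col15a1 and Id1 run to lower Has1-high values in all 4 libraries.

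Markers of a neighbouring fibroblast state, the adipogenic and vessel-side cells, were lower in Has1-high cells. Of 18 tested, 12 were lower and 1, the adhesion molecule Icam1, higher (log2 1.43), with a median of -0.54. Fabp4, a lipid carrier of adipocytes and capillaries, measured 15.03, 13.7, 6.98 and 3.62 CPM against 198, 190, 19.9 and 14.6 CPM (log2 -3.61 ± 0.21, adjusted p = 1.37e-05). Col15a1, a basement membrane collagen, measured 23.1, 26.2, 1.99 and 7.97 CPM against 145, 145, 68.5 and 47.7 CPM, lower in each library (log2 -2.66 ± 0.16, adjusted p = 1.84e-05). Both differences show the same direction in each library. Gdf10 (-2.66), Fmo2 (-2.31), Cxcl14 (-2.03) and Pparg, the master regulator of fat cell formation (-1.76), were lower too. Summed over the whole list the gap was small in some libraries, at 20432, 22314, 23280 and 33614 CPM against 21094, 28131, 27647 and 33908 CPM. Adipocyte markers summed to 0, 0.0906, 0 and 0 CPM against 16.5, 17.0, 0 and 0.157 CPM. In the dysentery libraries both classes thus lay near 0.

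Other large falls were in Id1, a target of BMP signalling, at 12.1, 10.9, 3.99 and 4.35 CPM against 77.6, 68.2, 29.7 and 16.9 CPM (log2 -2.64 ± 0.11, adjusted p = 2.86e-06), and in Mgp, an inhibitor of calcification, at 233, 212, 61.8 and 7.97 CPM against 1117, 1144, 204 and 194 CPM (log2 -2.49). In dysentery 1, a single cell held 49 of the 62 Mgp UMIs (79.0%). Apod, a lipid-binding secreted protein, fell by 3.86 on the log2 scale and stood at 0 to 2.63 CPM in Has1-high cells. The milk protein genes Csn2 (-4.39) and Csn1s1 (-3.63) were uneven between libraries, with Csn2 at 414, 0.721, 7.73 and 0.118 CPM in Has1-zero cells. Collagens gave 0 higher and 4 lower of 15, and genes for collagen folding 0 and 0 of 21.

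The Pi16 and Dpp4 progenitor list gave 6 higher and 1 lower of 22 (median log2 0.14), and its defining members did not pass. In acupuncture 1 and 2 and dysentery 1 and 2, 14, 20, 17 and 7 of the 22 were higher. The list medians were 0.42, 0.20, 0.17 and -0.07 in that order, so the list did not rise in dysentery 2. Pi16 measured 3493, 3622, 1727 and 2150 CPM against 2565, 3266, 1674 and 2900 CPM (log2 0.05, adjusted p = 0.859), and Dpp4 differed by 0.15. After thinning to 3000 UMIs, the share of cells with a Pi16 UMI was 93.6%, 93.5%, 89.4% and 93.5% in Has1-high cells against 75.3%, 80.1%, 76.8% and 87.2% in Has1-zero cells. For Dpp4 it was 72.2%, 73.8%, 84.7% and 77.8% against 56.7%, 63.7%, 63.7% and 74.7%. These shares were higher in Has1-high cells of each library, while the Pi16 level in CPM ran the other way in dysentery 2. The higher members included Cd55, which blocks complement (log2 0.76), Dact2 (0.66), the protein C receptor Procr (0.59) and Aldh1a3, which makes retinoic acid (0.53). Procr measured 570, 580, 366 and 579 CPM against 278, 375, 296 and 452 CPM, and without acupuncture 2 its adjusted p was 0.0701, as Dact2's was 0.0616. The Wnt modulator Sfrp2 was lower (-1.36, and adjusted p = 0.0927 without acupuncture 2). Of the telocyte markers, Cd34 did not pass (log2 0.05, adjusted p = 0.825), and Pdgfra was slightly lower (-0.32, adjusted p = 0.0316), a call lost when any of the 4 libraries was left out (adjusted p 0.0581 to 0.169). Of 7 tested telocyte markers, 1, 2, 2 and 1 were higher in acupuncture 1 and 2 and dysentery 1 and 2. Their median log2 differences were -0.48, -0.13, -0.39 and -0.57 in that order. The summed telocyte markers were lower in Has1-high cells except in dysentery 2 (2445 against 2409 CPM).

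Markers of macrophages moved with these groups. All 8 were lower in Has1-high cells (median log2 -1.51), and they summed to 212, 215, 159 and 89.9 CPM against 624, 574, 311 and 245 CPM in Has1-zero cells. Their part in the differences was not tested. Run in the acupuncture libraries alone, the comparison called 2294 genes (1182 higher, 1112 lower), and in the dysentery libraries alone 91 (25 higher, 66 lower). Of the 95 named and called genes that could be tested in the dysentery libraries alone, 26 kept their call and 5 changed sign. The Has1-high sums of those libraries hold fewer UMIs, as given above, and the part of depth in this gap was not tested.

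Response genes were ordered by Has1 content within the acupuncture libraries. Has1-zero cells were set beside gate cells that met the exclusions and held 1 to 2, 3 to 4, 5 to 9 or 10 or more Has1 UMIs. In acupuncture 1, Il6 stood at 10.5, 32.4, 74.7, 179 and 358 CPM across the bins, and in acupuncture 2 at 20.2, 65.8, 128, 274 and 409 CPM, so each step was upward in both. Ptgs2 followed the same order, from 30.4 to 924 CPM in acupuncture 1 and from 131 to 1584 CPM in acupuncture 2, and Cxcl1 from 154 to 3707 and from 589 to 5071 CPM.

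Has2 went from 73.3 to 208 and from 54.4 to 209 CPM across the bins of the acupuncture libraries. In dysentery 2 it stood at 97.4, 116, 144 and 207 CPM up to the bin of 5 to 9 UMIs, which held 38 cells, and in dysentery 1 at 67.1, 107, 158 and 149 CPM, where that bin held 23 cells. Cd34 showed no such order, at 89.9, 86.7, 76.8, 91.2 and 82.7 CPM in acupuncture 1. These levels are scaled to the UMIs of each bin. Depth moved with the bins, from a mean of 5901 to 13272 UMIs per cell in acupuncture 1 and from 6905 to 18526 in acupuncture 2, and its part in the order was not tested. The bins are descriptive and carry no test, since cells of 1 library are not replicates.

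**Figure D3:**
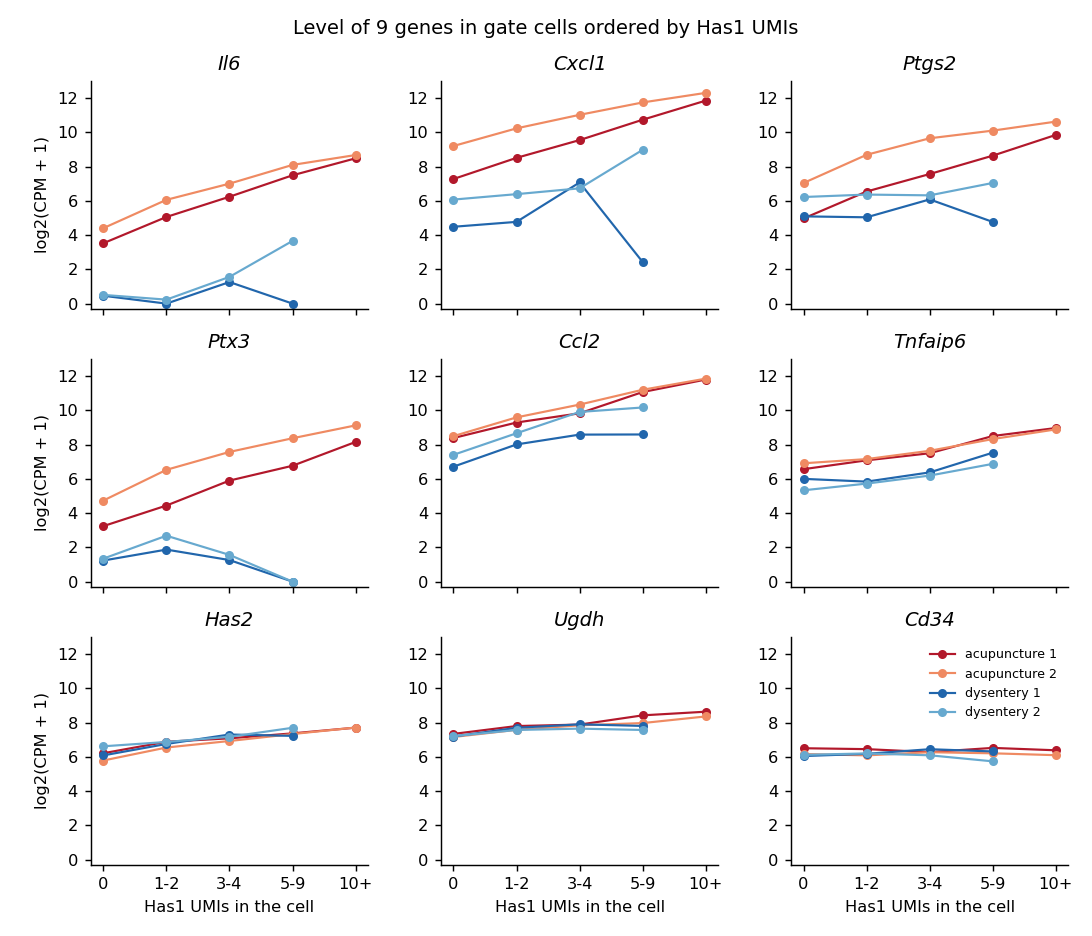
Level of 9 genes on the log2(CPM + 1) scale (y axis) against the Has1 UMIs of the cell in 5 bins (x axis), 1 line per library, with bins under 20 cells left out. Il6, Cxcl1, Ptgs2 and Ptx3 climb with Has1 in both acupuncture libraries and take no steady course in the dysentery libraries, and Cd34 stays nearly level in all 4.

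Has1-high cells made up a larger share of the gate with acupuncture. They were 14.6% (95% exact interval 13.5% to 15.7%) and 20.1% (18.8% to 21.4%) of gate cells in the acupuncture libraries, against 3.38% (2.73% to 4.13%) and 2.59% (2.22% to 3.01%) in the dysentery libraries. Both acupuncture values lay above both dysentery values, with means of 17.3% ± 3.87 and 2.99% ± 0.553 (SD, n = 2) and a difference of 14.4 points. The two-sided exact permutation p was 0.333, the smallest that 2 against 2 libraries can give. Thinned to 3000 UMIs per cell, the shares were 10.0%, 8.004%, 0.666% and 0.742%, a difference of 8.31 points. Gate cells with fewer UMIs were left out of these shares. Has1 and the excluding genes Mrgprg, Myoc and Igfbp3 were counted anew after thinning, so cells excluded at full depth could enter. The raw and thinned shares therefore do not describe the same cells. The share depends on the Has1 level, so a larger share and more Has1 per cell cannot be told apart.

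**Figure D4:**
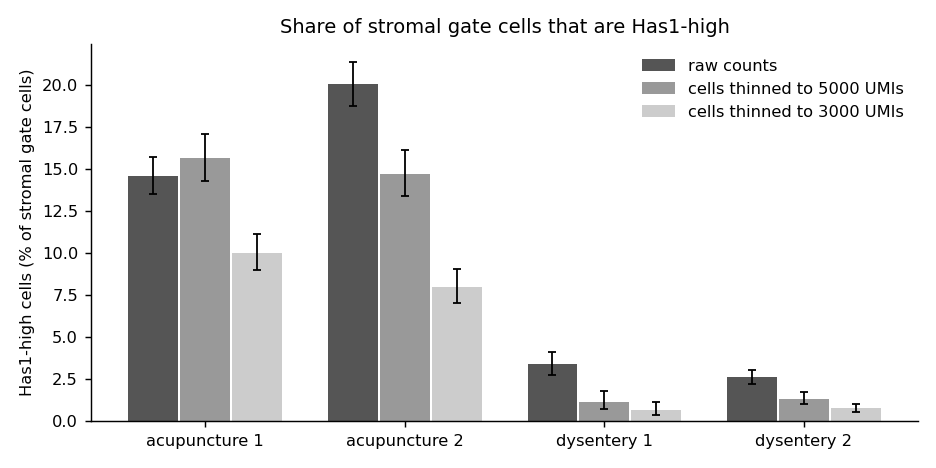
Has1-high cells as a percentage of stromal gate cells in each library, from raw counts and with cells thinned to 5000 or 3000 UMIs, with bars for 95% exact binomial intervals that cover counting error only. Thinned shares leave out cells with fewer UMIs than the thinned depth, and their classes were drawn anew from the thinned counts. The acupuncture libraries sit at 14.6% and 20.1% from raw counts, above the dysentery libraries at 3.38% and 2.59%.

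Within Has1-high cells, acupuncture went with higher early response and NF-kB genes and with lower Cxcl13 and Angptl4. Of 10223 genes tested, 231 were higher and 93 lower with acupuncture, or 3.17% called (2.26% higher, 0.91% lower), with a median log2 change of -0.01. In Has1-zero cells 105 of 12244 were called, or 0.858% (75 higher and 30 lower). DESeq2 called 344 of 10223 in Has1-high cells and 468 of 12244 in Has1-zero cells, so the order of the 2 shares turned with the method. Because acupuncture cells also held more Has1, the comparison was repeated in cells of 3 or 4 Has1 UMIs, where 58 of the 69 named and called genes that could be tested kept their call. Over all genes, 233 of 8082 were called there, 196 of them among the 324 of the main fit. These cells held a mean of 9510 and 13546 UMIs with acupuncture and 10703 and 8067 with dysentery alone. Equal Has1 UMIs were thus not equal shares of a cell's UMIs.

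Il6 gave the values listed above, 241 and 316 CPM against 0.997 and 4.35 CPM, a log2 change of 6.53 ± 0.36 (edgeR adjusted p = 0.000167). In thinned Has1-high cells an Il6 UMI was found in 26.1% and 32.8% with acupuncture and in 0 of 85 and 0 of 153 cells with dysentery alone, which allows shares of up to 3.53% and 1.96% of cells with a UMI at that depth. At full depth 1 and 3 dysentery cells held Il6 UMIs. Cxcl1 rose by 4.39 ± 0.38 (adjusted p = 0.000742), Nfkbiz by 4.18 ± 0.19 (0.000139) and Atf3 by 3.93 ± 0.21 (0.000167). The thinned share of cells with an Atf3 UMI was 77.8% and 84.9% against 17.6% and 19.6%. Gadd45a, which responds to growth arrest and DNA damage, measured 422 and 309 CPM with acupuncture and 28.9 and 21.0 CPM without, a wide gap (log2 3.86 ± 0.24, adjusted p = 0.000186).

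Some rises started from almost no UMIs. Ptx3 had 5860 UMIs with acupuncture and 3 with dysentery alone, a ratio of 248 for equal depth (counting interval 85.0 to 1205). Phlda1 had 1167 against 2 UMIs (ratio 74.2, interval 20.5 to 613), and Cxcl3 had 412 against 0, at least 17.5-fold higher against a floor of 3 counts over the group (its counting interval starts at 14.1). Without dysentery 2 the adjusted p of Cxcl3 was 0.0532 and that of Ptx3 0.0635, and the call on Phlda1 was lost without dysentery 1 (0.120) or dysentery 2 (0.196).

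Ptgs2 rose by 3.61 ± 0.39 within Has1-high cells (adjusted p = 0.00209), and its thinned share of positive cells was 39.7% and 65.4% against 10.6% and 14.4%. Its call was lost without dysentery 1 (log2 3.36, adjusted p = 0.0672) and without dysentery 2 (3.98, 0.0757). Tnfaip6 rose by 2.02 ± 0.16 (adjusted p = 0.000533). Has2 showed no such change (log2 0.19 ± 0.14, adjusted p = 0.533), and neither Ugdh (0.57, 0.102) nor Gfpt2 (-0.70, 0.069) passed. Gfpt2 was called lower by DESeq2 (adjusted p = 0.00781), without the filter on low counts (0.00263), without acupuncture 1 (0.0116), with the replicate block (0.0147), with doublets removed (0.041) and in cells of 3 or 4 Has1 UMIs (0.0127). Ugdh was called higher without the filter (adjusted p = 0.00997) and with the block (0.0319). Of 15 UDP-sugar genes 0 were higher and 0 lower by edgeR, and of 16 hyaluronan genes 2 were higher, Tnfaip6 and Ptx3. Lumican, a collagen-binding proteoglycan, rose from 70.8 and 67.4 CPM to 454 and 620 CPM (log2 2.93 ± 0.20, adjusted p = 0.000296), and by the same 2.93 in Has1-zero cells.

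Genes lower with acupuncture included Cxcl13, which attracts B cells, at 79.0 and 57.0 CPM against 536 and 508 CPM (log2 -2.98 ± 0.19, adjusted p = 0.000191). Olfml2a measured 9.52 and 9.42 CPM against 53.8 and 55.8 CPM (log2 -2.56, adjusted p = 0.000307). Angptl4, an inhibitor of lipoprotein lipase, measured 103 and 67.8 CPM against 307 and 285 CPM (log2 -1.83, adjusted p = 0.0028). Its call was lost without dysentery 1 (adjusted p = 0.0530) and dysentery 2 (0.0706). The acupuncture and dysentery values of these 3 genes did not overlap, as was so for 49.9% of all genes tested (22% in the lower direction and 27.9% in the higher). Herc6 was lower as well (-2.16, adjusted p = 0.000921).

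By list, 18 of 24 immediate early genes were higher and 0 lower (median log2 2.14), against 0 and 0 of 25 in Has1-zero cells (median 0.59). Of 22 NF-kB genes 9 were higher and 0 lower (median 1.17), and of 17 heat shock genes 8 and 0 (median 1.14). Cytokines and chemokines went both ways, with 5 higher (Il6, Ccl2, Cxcl1, Cxcl3 and Cxcl10) and 3 lower (Cxcl13, Cxcl12 and Il33) of 19. Ccl2 was not called by DESeq2 (log2 1.94, adjusted p = 0.0926) or by edgeR in cells of 3 or 4 Has1 UMIs (0.72, 0.396). Cxcl10 was not called in cells of 3 or 4 Has1 UMIs either (1.28, 0.0860), nor Il33 at 5 or more (-0.56, 0.179). Of 16 glucocorticoid response genes 7 were higher and 1 lower, with the metallothionein Mt1 at 98.2 and 109 CPM against 9.97 and 5.80 CPM (log2 3.74, adjusted p = 0.000191). Macrophage markers moved the same way, 3 of 7 being higher in Has1-high cells (C1qa 1.85, adjusted p = 0.00345, but 0.0540 without dysentery 1 and 0.0786 without dysentery 2) and 4 of 8 in Has1-zero cells. With doublets removed all 3 calls were lost, at log2 0.79 for C1qa (adjusted p = 0.191), 1.14 for C1qb (0.120) and 0.98 for C1qc (0.0872). The part of macrophage RNA in the treatment differences was not tested. Leaving out 1 dysentery library kept 37 (without dysentery 1) or 25 (without dysentery 2) of the 72 named and called genes, with 0 changes of sign.

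**Figure D5:**
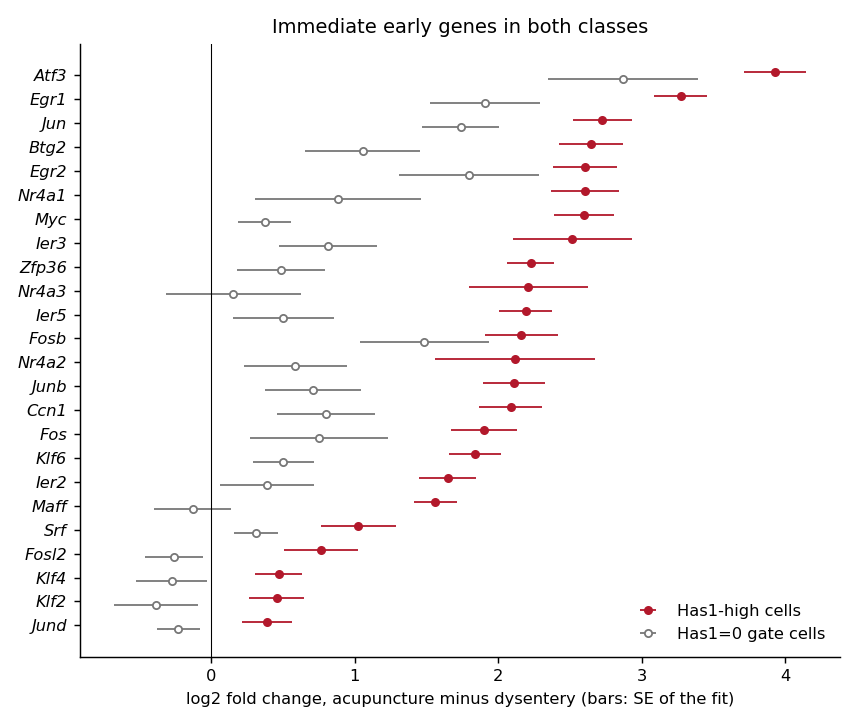
Log2 fold change of acupuncture minus dysentery (x axis) for 24 immediate early genes in Has1-high cells (filled red) and Has1-zero cells (open grey), with bars for the standard error of the fit. The red point lies to the right of the grey one for every gene drawn, as for Egr1 (3.27 against 1.91) and Zfp36 (2.22 against 0.49).

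Whether the acupuncture change itself differed between the 2 classes was tested with an interaction term over 8 sums. The classes were cut on Has1, which itself differed by treatment. Has1-high cells held a median of 8 and 7 Has1 UMIs with acupuncture against 3 and 3 with dysentery alone. The term was not run in cells of 3 or 4 Has1 UMIs, so the part of Has1 content in these differences was not tested. Of 12555 genes 165 changed more in the higher direction in Has1-high cells and 27 in the lower (1.53% called, 1.31% and 0.215%), with a median difference of 0.06. Immediate early genes gave 19 higher and 0 lower of 26 (median 1.44), heat shock 7 and 0 of 17, glucocorticoid response 7 and 0 of 18, and NF-kB 6 and 0 of 23. The difference for Ptgs2 was 3.28 ± 0.31 (adjusted p = 0.000109), with changes of 3.61 in Has1-high and 0.61 in Has1-zero cells. That for Gadd45a was 3.44 (adjusted p = 0.00024), for Ptx3 4.41 ± 0.57 (0.000901), for Nfkbiz 2.37 (0.0179) and for Tnfaip6 0.98 ± 0.19 (0.0154). After thinning to 3000 UMIs, edgeR called neither Ptx3 (9.65, adjusted p = 0.332) nor Tnfaip6 (1.28, 0.166). Tnfaip6 was also not called by DESeq2 (0.93, adjusted p = 0.0857) or by edgeR at 5 or more Has1 UMIs (0.64, 0.138).

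Il6 changed by 6.53 in Has1-high and 5.23 in Has1-zero cells, and the difference of 1.37 did not pass (adjusted p = 0.627), nor did that of Atf3 (1.27, 0.279) or Has2 (0.63, 0.108). Ccl2 passed at 0.76 ± 0.17 (adjusted p = 0.0342) but not without dysentery 1 (0.41, 0.207). The largest negative differences, in Tnc (-9.89), Tpm2 (-4.15) and Thbs4 (-4.10), rested on 1 Has1-high cell of dysentery 1 with 42652 UMIs, which held all 158 Tnc, 61 Tpm2 and 59 Thbs4 UMIs of that group. Without dysentery 1 they were 2.30, 0.76 and 7.04, and none of the 3 passed.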

How the data were processed

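Per the submitters' processing notes, the authors ran Cell Ranger 6.0.1, which uses STAR, and named mRatBN7.2 and GRCh38.p13 without a role. The deposited matrices hold raw UMI counts for 30560 genes (7162 without a symbol), and the deposited barcode and feature files hold other content, namely names. Libraries were grouped by title. Cells had at least 300 genes and at most 20% mitochondrial UMIs. Doublets marked by Scrublet (scanpy 1.11.5, 0.8% per 1000 cells; 124 Has1-high cells) were kept, and removed as an alternative.

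Counts were summed per library and class. The edgeR 4.0.16 quasi-likelihood test (R 4.3.3) used TMM, filterByExpr at 10 counts and Benjamini-Hochberg adjustment at 0.05, with library as a block between classes, and 12 genes of the rule were not tested. CPM per library are TMM-scaled, those by Has1 content are not. Scripts were tested on simulated data. Intervals are 95% Clopper-Pearson and floors 3 counts, and both cover counting error only. Promoters were matched by symbol. Alternatives were DESeq2 1.42.0, RLE size factors, no filter, each library left out, the replicate block, Has1 of at least 2 or 5 UMIs, a gate of 60, a mitochondrial limit of 10%, thinning and depth limits. Comparators with the same exclusions, cells of 3 or 4 Has1 UMIs and single treatments were added after seeing the data.

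Between classes, the 12 largest rises and falls were named (adjusted p under 0.05, 1 sign in all 4 libraries, at least 20 CPM). Between treatments the 10 largest and for the difference the 5 largest each way were named, with up to 4 called members of each described list and a set of hyaluronan, fibroblast and response genes. Of the genes so chosen, 2 are not reported here. The 43 gene lists held 635 genes, of which 33 had no row. The members, lists and rules were chosen with earlier results of these data known. No 2 libraries were duplicates, and 19 to 32 barcodes were shared between any pair.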

Additional observations from a re-analysis of the deposited data

Results flagged for a closer look

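The change with acupuncture differed between Has1-high and Has1-zero cells by the interaction test in edgeR, with 165 genes higher and 27 lower in Has1-high cells. Has1-high cells held more Has1 with acupuncture, and the part of this in the differences was not tested. Among the named genes, the difference was positive for Ptx3 (log2 4.41), Apod (4.32), Phlda1 (4.21), Cck (3.78), Gadd45a (3.44), Ptgs2 (3.28), Cxcl1 (1.58), Tnfaip6 (0.98) and Ccl2 (0.76). It was negative for Tnc (-9.89), Tpm2 (-4.15), Thbs4 (-4.10) and Fabp4 (-2.002). Apod and Cck rest on few Has1-high UMIs, 41 with acupuncture against 2 for Apod (ratio 2.61, counting interval 0.677 to 22.2) and 99 against 3 for Cck (4.20, 1.39 to 20.7). The difference of Cck was 2.07 without acupuncture 2 (adjusted p = 0.403). In dysentery 1, 1 cell held all Tnc, Tpm2 and Thbs4 UMIs of the Has1-high cells. Fabp4 was -1.77 without dysentery 1 (adjusted p = 0.344) and 0.37 with doublets removed. Of the 14 named genes called here, DESeq2 called 5, and after thinning to 3000 UMIs 4 of the 13 that could be tested were called.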

How the results depend on the processing

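The precision of the treatment comparisons is limited by 2 libraries a group and, within Has1-high cells, by the 91 and 167 dysentery cells. Between classes (895 genes), DESeq2 called 592, thinning to 3000 UMIs 396 (252 higher, 144 lower), the acupuncture libraries alone 2294, the dysentery libraries alone 91, and fits without 1 library 240 (without acupuncture 2) to 1123. Between treatments in Has1-high cells (324), no filter gave 973, the replicate block 570, Has1 of at least 2 UMIs 535, at least 5 UMIs 192, and leave-outs 77 (without dysentery 2) to 505. In Has1-zero cells (105), DESeq2 gave 468, no filter 466, the replicate block 398 and leave-outs 57 to 372. For the difference (192), DESeq2 gave 110, no filter 405, thinning 61 and leave-outs 219 to 310. For same-numbered libraries (2 pairs), the labels do not say whether the number marks a shared animal or day. Deviations of same-numbered libraries from their group means correlated at 0.006 in Has1-high and 0.316 in Has1-zero cells. The cause of these shifts was not tested.

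The share difference of 14.4 points was 5.42 thinned to 2000 UMIs, 8.31 thinned to 3000, 6.08 over all cells passing the quality limits, 20.3 without the exclusions, and 11.6 to 17.1 with 1 library left out. Differences in thinned shares of cells with a UMI were -2.88 for Cd34 (0.970 at 3000 UMIs), 6.94 for Pi16 (2.11) and 40.7 for Lum (48.9) at 2000 UMIs. Treatment within thinned Has1-high cells was not run, since dysentery 1 kept 14 cells, and the thinned fits between classes and for the difference rest on the same 14.

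Turned signs between classes, in the dysentery libraries alone, were Ptx3 -0.21, Sema5a 0.088, Tagln 0.80, Mt1 -0.22, Serpine2 0.62 and Pi16 -0.20. With 1 library left out, Cd34 ran from -0.031 (without dysentery 1) to 0.095 and Pi16 from -0.079 (without acupuncture 1) to 0.21. Cd34 was -0.0075 at 5 UMIs, Pi16 -0.049 thinned and Dpp4 -0.040 thinned. Between treatments, Has2 was -0.22 at 3 or 4 UMIs. Leave-outs ran from -0.035 to 0.81 for Cd44, -0.040 to 0.30 for Cd34 and -0.17 to 0.0073 for Dpp4 (turned without dysentery 2), and from -0.038 (without dysentery 1) to 0.65 for Procr. For the difference, they ran from -11.7 to 2.30 for Tnc, -5.43 to 0.76 for Tpm2 and -5.51 to 7.04 for Thbs4, turned without dysentery 1. Tpm2 was 1.76 and Thbs4 6.71 with doublets removed. Thbs4 was 6.83 at 5 UMIs and 5.46 thinned, and Fabp4 0.37 with doublets removed and 0.038 at a gate of 60.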

Other observations

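Signals of growth factors and of axon guidance were also measured in Has1-high cells against Has1-zero cells. Of 11 tested EGF receptor ligands and feedback genes 3 were higher and 1 lower, with the ligand Areg at 7.89, 11.2, 0 and 1.45 CPM against 0.57, 1.51, 0.438 and 0.863 CPM (log2 2.74, edgeR adjusted p = 0.00301). Of 26 BMP, TGF-beta and Wnt genes 3 were higher and 8 lower, and of 14 axon guidance and neurotrophin genes 1 was higher and 6 lower, beside 3.48% higher and 4.1% lower over all genes tested. Slit3, a secreted guidance cue, fell by 0.86 on the log2 scale (adjusted p = 0.000605), as did the semaphorin receptor Nrp1 (-0.84, adjusted p = 0.000605). Pdgfrb, the platelet-derived growth factor receptor of mural cells and fibroblasts, was lower by a log2 difference of -1.08 (adjusted p = 0.00012), and the caveolar protein Cav1 by -1.99 (adjusted p = 0.00055). Of 19 matrix protease and inhibitor genes 3 were higher and 3 lower, and of 12 cell cycle genes 2 were higher and 0 lower, with medians of -0.08 and 0.65 beside 0.00 over all genes tested. In the separate libraries the cell cycle median was 0.06, 0.39, 1.41 and -0.13 in acupuncture 1 and 2 and dysentery 1 and 2, with 9, 11, 12 and 6 of 12 genes higher, so it was highest in dysentery 1 (91 cells) and negative in dysentery 2.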
